A study of Mus musculus with 18 samples.

Results

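Transcript levels of 10 antiviral genes linked to the interferon response were followed in L929 cells, a clonal line of mouse fibroblasts. The genes were Rsad2, Bst2, Ifitm3, Samhd1, Eif2ak2, Adar, Parp9, Dtx3l, Parp14 and Rtp4, chosen as the rows of the deposited table with these gene names, and all 10 of the 57180 genes in the table were found once and passed the filter on low counts. RNA-seq was performed on 6 groups of 3 cultures each. Cells were wild type in every group and received DMSO (Mock), 0.5 mM aminooxyacetic acid (AOA), AOA with 20 mM aspartate (AOA+Asp), 0.5 μg/ml herring testis DNA (HT-DNA), HT-DNA with AOA (HT-DNA+AOA), or HT-DNA with AOA and aspartate (HT-DNA+AOA+Asp). AOA blocks aminotransferases, the enzymes that make aspartate in the cell, and HT-DNA is double-stranded DNA delivered into the cytosol with Lipofectamine 2000. In the HT-DNA arms AOA was given 1 h before HT-DNA, and cells were harvested 6 h after HT-DNA. How long the arms without HT-DNA were treated and whether they received Lipofectamine are not given in the sources used here, and no group received aspartate alone. The comparisons asked how the antiviral genes respond to cytosolic DNA, what AOA adds to that response, and what is left of it when aspartate is supplied.

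Cytosolic double-stranded DNA is detected by cGAS, whose product activates STING. STING signals through TBK1 and IRF3 to the interferon-beta gene, and secreted interferon acts on its receptor to activate a transcription factor complex that holds IRF9 and switches on interferon-stimulated genes. Many of the products act directly on a step of viral replication. Rsad2 (viperin) makes a nucleotide that terminates viral RNA chains, Bst2 (tetherin) holds budding virions on the cell surface, Ifitm3 restrains fusion of virions with endosomes, and Samhd1 breaks down the deoxynucleotides that reverse transcription needs. Eif2ak2 encodes PKR, which binds double-stranded RNA and stops translation, and Adar encodes the enzyme that converts adenosine to inosine in double-stranded RNA and keeps PKR and other sensors from responding to the cell's own RNA. Parp9 and Parp14 belong to the family of ADP-ribosyltransferases and carry macrodomains, which bind ADP-ribose, and Dtx3l is the ubiquitin ligase that works in a complex with Parp9. Rtp4 is an interferon-induced zinc-finger protein that restricts flaviviruses.

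The interferon response is read in promoters through the interferon-stimulated response element, in which GAAA repeats are spaced by a pair of bases. The letters GAAANNGAAA were searched on both strands of the RefSeq promoter windows (build GRCm38.p6, 250 bases before to 50 after each start). Of the 10 genes, 7 had a window, and Parp9, Parp14 and Rtp4 were without an entry. The letters stood in 4 of these 7 genes, in 44.4% of their 9 windows, against 3.44% of all 32851 windows. They stood in 8 of 14 genes of a list of other antiviral effectors, in 2 of 13 genes of the interferon pathway and in 3 of 24 relatives of the 10 genes by family. No match to these letters was found in the windows of Adar, Dtx3l or Samhd1. The stretches that hold the letters are shown because the genes with and without them can then be set beside their response to HT-DNA. Capitals mark the matched letters, each stretch is read 5′ to 3′ on the gene's strand, and all 4 genes lie on the minus strand.
Rsad2, chr12:26456538-26456597: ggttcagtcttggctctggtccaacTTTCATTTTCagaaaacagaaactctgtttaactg
Bst2, chr8:71537562-71537627: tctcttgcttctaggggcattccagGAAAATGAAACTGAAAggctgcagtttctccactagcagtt
Ifitm3, chr7:141010715-141010743: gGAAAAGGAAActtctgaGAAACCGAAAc
Eif2ak2, chr17:78882535-78882564: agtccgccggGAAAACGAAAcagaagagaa
In Rsad2 the letters lie on the antisense strand, beginning 120 bases before the start base. Bst2 holds 2 overlapping matches, the nearer beginning 124 bases before the start base, and Ifitm3 holds 2 separate matches, beginning 2 and 19 bases after it. In Eif2ak2 the match begins 18 bases after the start base. The bases at the RefSeq start of Bst2 were not found in a GENCODE transcript of that gene, unlike those of Rsad2, Ifitm3 and Eif2ak2.

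Library totals ran from 17901546 to 24057284 counts, with a median of 20385793. Of 8 fibroblast markers, 7 were at 18.7 to 3711 CPM (counts scaled by each library's total and TMM factor) in every library, and Thy1 was at or below 0.169 CPM. Of 12 markers of blood, epithelial, endothelial, neural and muscle cells, 11 did not pass the filter, 4 had no count in any library, and the list summed to 0.179 to 1.20 CPM per library. The 3 HT-DNA+AOA libraries stood apart from each other. Over the tested genes, chi-square per degree of freedom between their pairs was 16.9 to 62.4, against 2.72 to 12.4 between replicates of the other groups. HT-DNA+AOA replicate 1 was the highest of its group for 7 of the 10 genes (Rsad2, Samhd1, Eif2ak2, Adar, Parp9, Dtx3l and Parp14), and replicate 3 for the other 3 (Bst2, Ifitm3 and Rtp4). Results that use this group are therefore given with and without its libraries where that ended a call or moved a called value by over 1.5 times, and for the PARP group.

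**Figure D1:**
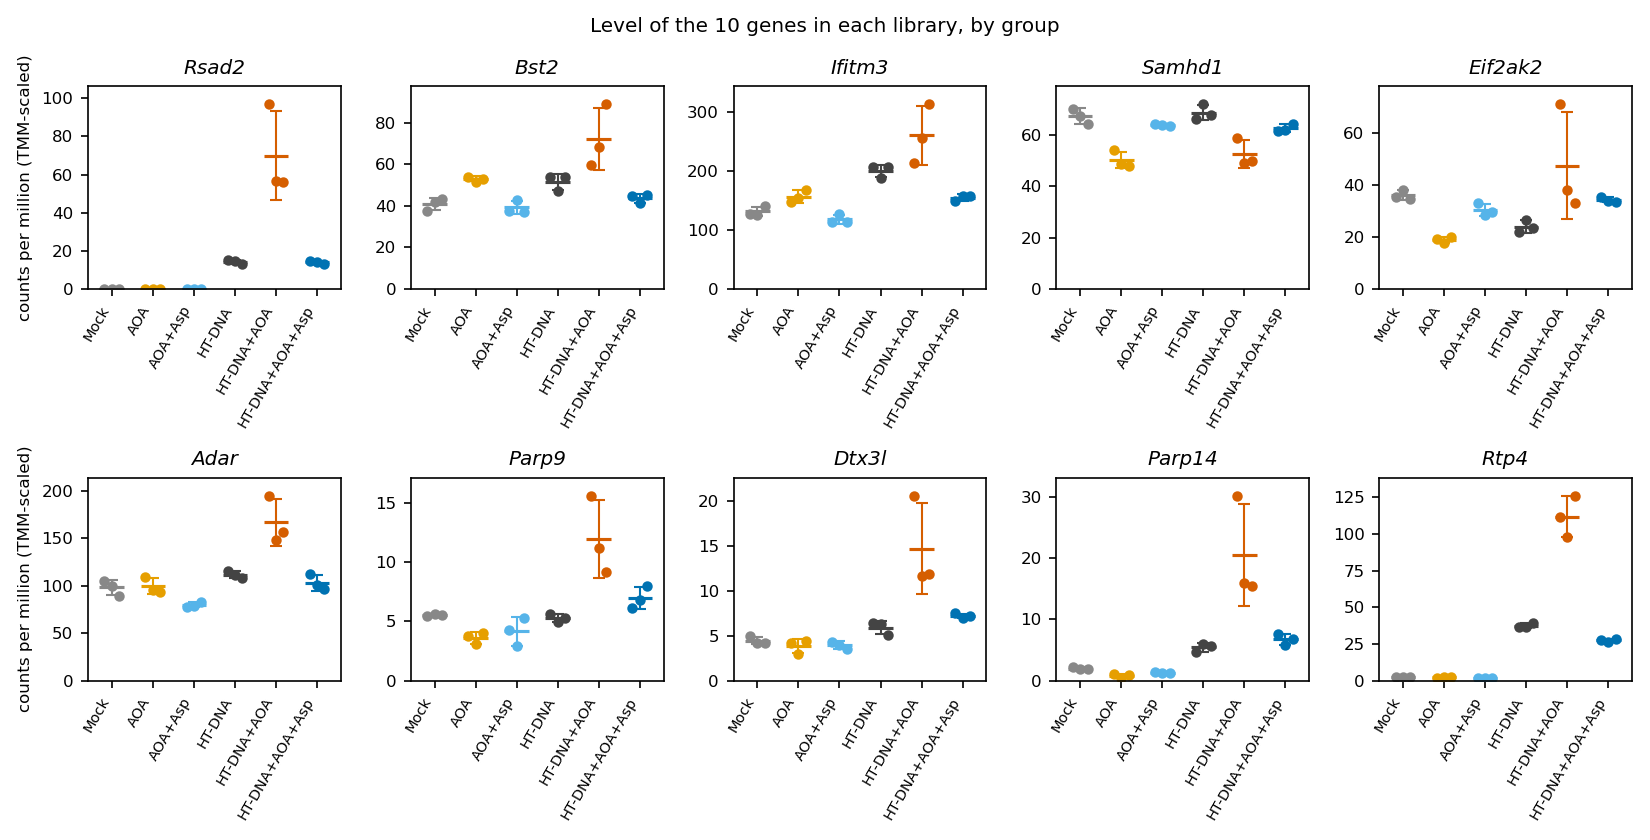
CPM of each of the 10 genes (vertical axis, linear and starting at 0, a separate scale per gene) in the 18 libraries by group (horizontal axis). Points are libraries in order of replicate number, horizontal lines are group means and bars are the SD of 3 libraries. For 9 genes the HT-DNA+AOA mean is the highest of the 6, with the widest spread, and for Samhd1 the 2 lowest means are those of AOA and HT-DNA+AOA.

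HT-DNA alone raised 5 of the 10 genes, by very different amounts, and lowered Eif2ak2. Against Mock, 5 of the 10 genes were higher (Rsad2, Rtp4, Parp14, Ifitm3 and Bst2), where 24.2% of the 14263 tested genes were, and 1 was lower (Eif2ak2), where 24.0% were. Adar, Dtx3l, Parp9 and Samhd1 did not pass the test. A gene passed where its adjusted p-value in edgeR's quasi-likelihood test was under 0.05. The median log2 fold change was 0.37 over the 10 genes and -0.0076 over all tested genes. The libraries were made from bulk RNA, so fewer cells with a transcript and less of it per cell cannot be told apart.

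Rsad2 was almost silent before HT-DNA, with counts of 6, 5 and 1 in the 3 Mock libraries, or 0.254, 0.225 and 0.0475 CPM. It reached 15.01, 14.5 and 13.2 CPM with HT-DNA, a 76.7-fold rise (log2 fold change 6.26, SE 0.34, adjusted p = 2.11e-10). Rtp4 went from 2.20, 2.34 and 2.33 CPM in Mock to 36.7, 36.7 and 39.2 CPM, a 16.4-fold rise (log2 fold change 4.03, SE 0.11, adjusted p = 4.52e-15). For both genes the HT-DNA libraries lay far above every Mock library and close to each other. Parp14 was at 2.20, 1.85 and 1.85 CPM in Mock and at 4.65, 6.02 and 5.63 CPM with HT-DNA (log2 fold change 1.46, SE 0.26, adjusted p = 2.20e-04).

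Bst2 and Ifitm3, which act on virions at membranes, were already well expressed in Mock and rose less. Ifitm3 was at 127, 126 and 141 CPM in Mock and at 206, 188 and 206 CPM with HT-DNA (log2 fold change 0.61, SE 0.10, adjusted p = 1.43e-04). Bst2 was at 37.5, 41.9 and 43.2 CPM in Mock and at 54.0, 47.1 and 53.7 CPM with HT-DNA (log2 fold change 0.34, SE 0.11, adjusted p = 0.0184). The groups did not overlap for either gene. Of the 10 genes, 8 had no overlap, against 61.3% of all tested genes. The Bst2 call was lost when libraries were scaled by their totals (0.23, adjusted p = 0.0691) and without Mock replicate 1, HT-DNA replicate 1 or HT-DNA replicate 3. Scaling by totals moved the median of all tested genes by -0.11 on the log2 scale in this comparison, and 4 of the 10 genes were then higher and 1 lower. Among all calls it moved the share of higher genes from 50.2% to 35.2%.

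Neither gene that acts on double-stranded RNA was called higher with HT-DNA. Eif2ak2 fell from 35.5, 38.2 and 34.6 CPM in Mock to 21.7, 26.7 and 23.5 CPM (log2 fold change -0.59, SE 0.18, adjusted p = 0.0136), with no overlap between the groups, and this call was lost without HT-DNA replicate 1 (adjusted p = 0.0564). Adar was at 105, 100.2 and 89.3 CPM in Mock and at 116, 112 and 108 CPM with HT-DNA (log2 fold change 0.18, SE 0.094, adjusted p = 0.114). Every HT-DNA library was above every Mock library for Adar, though the difference missed the threshold. In a fit of only the 2 groups, Adar (adjusted p = 0.0274) and Dtx3l (adjusted p = 0.0306) passed as higher. Parp9 and Dtx3l, partners in 1 complex, were also short of it. Parp9 was at 5.46, 5.63 and 5.55 CPM in Mock and 5.61, 4.97 and 5.24 CPM with HT-DNA (log2 fold change -0.073, SE 0.20, adjusted p = 0.781). Dtx3l was at 4.95, 4.19 and 4.22 CPM in Mock and 6.37, 6.25 and 5.07 CPM with HT-DNA (log2 fold change 0.40, SE 0.20, adjusted p = 0.11). Samhd1 was at 70.2, 67.5 and 64.4 CPM in Mock and 66.0, 71.9 and 67.9 CPM with HT-DNA, with a 95% interval for the log2 fold change of -0.13 to 0.18. Of the 4 genes whose window held GAAANNGAAA, 3 thus rose and Eif2ak2 fell. Of the 3 whose window did not hold it, none passed the test in the fit of all 6 groups, and of the 3 without a window Parp14 and Rtp4 rose. When AOA was added to HT-DNA, all 4 genes with the letters rose. Of those without them, Adar (log2 fold change 0.58) and Dtx3l (1.32) rose too and Samhd1 (-0.38) fell. Whether the letters go with the response was not tested.

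Adding AOA to HT-DNA moved all 10 genes. Against HT-DNA alone 9 were higher in HT-DNA+AOA, where 22.8% of all tested genes were, and Samhd1 was lower, where 22.7% were. All 10 had groups without overlap, against 44.8% of all tested genes. The median log2 fold change was 1.08 over the 10 genes and 0.024 over all tested genes. Each of the 10 calls was kept without any of the 6 libraries compared.

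**Figure D2:**
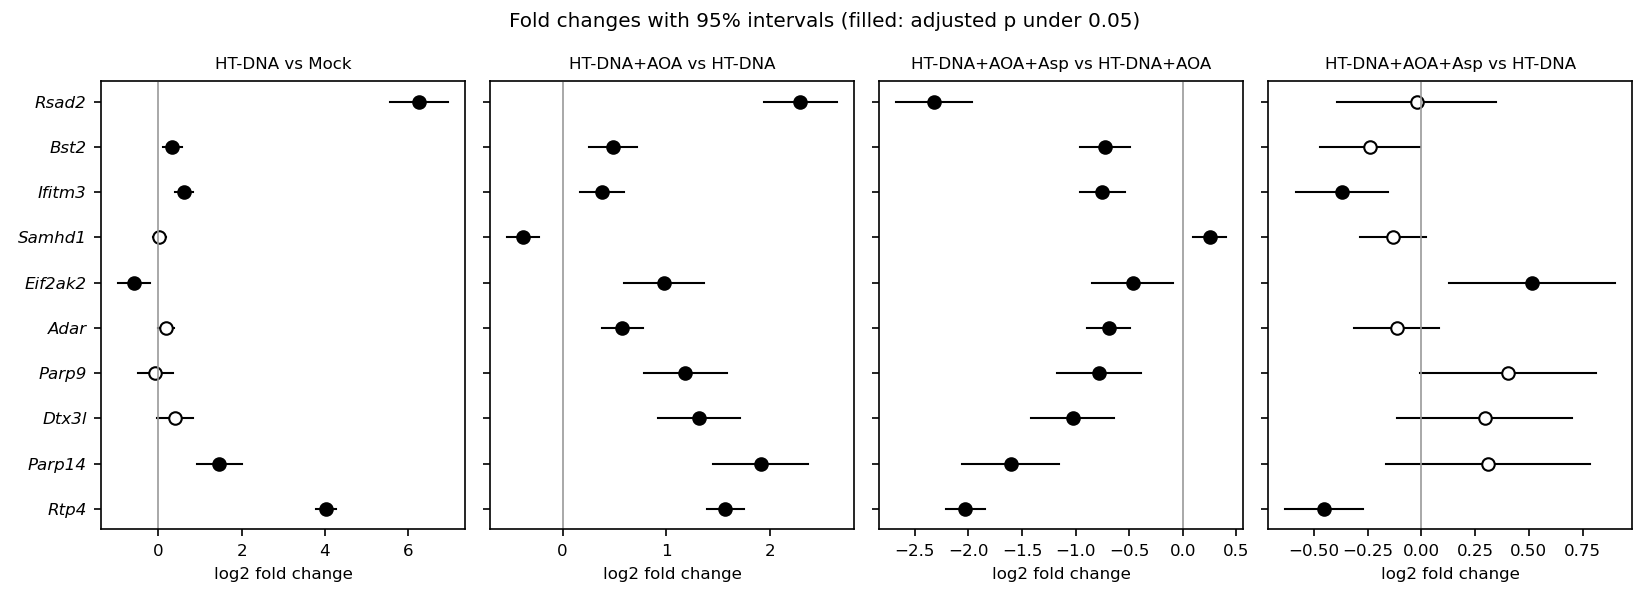
Log2 fold change of each of the 10 genes (rows) in 4 comparisons (panels, each with its own linear horizontal axis). Points are estimates, lines are 95% intervals, and filled points passed an adjusted p-value of 0.05. All 10 genes are filled in the middle 2 panels, with Samhd1 on the opposite side of 0 from the rest, and 3 of 10 are filled in the last.

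Rsad2 had the largest fold change of the 10. Its HT-DNA+AOA libraries were at 96.7, 56.7 and 56.1 CPM, against 14.2 ± 0.962 CPM (mean ± SD, n = 3) with HT-DNA alone, a 4.92-fold rise (log2 fold change 2.30, SE 0.17, adjusted p = 3.68e-09). Replicate 1 was well above the other two, and without it the log2 fold change was 1.99. Rtp4 reached 112, 97.9 and 126 CPM from 37.6 ± 1.44 (SD, n = 3), a 2.98-fold rise (log2 fold change 1.57, SE 0.085, adjusted p = 6.09e-11). HT-DNA itself raised these 2 genes the most of the 10. On adding AOA the rise of Parp14 was larger than that of Rtp4 with all libraries in. Without HT-DNA+AOA replicate 1 it was not (log2 fold change 1.53 for Parp14 and 1.57 for Rtp4).

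The 3 genes of the PARP group rose together, although HT-DNA alone had raised only Parp14 past the threshold. Parp14 reached 30.1, 15.9 and 15.5 CPM from 5.43 ± 0.705 (SD, n = 3), a 3.77-fold rise (log2 fold change 1.92, SE 0.22, adjusted p = 8.58e-07). Dtx3l reached 20.6, 11.7 and 11.9 CPM from 5.90 ± 0.72, a 2.50-fold rise (log2 fold change 1.32, SE 0.19, adjusted p = 1.22e-05). Parp9 reached 15.6, 11.2 and 9.12 CPM from 5.27 ± 0.319, a 2.27-fold rise (log2 fold change 1.18, SE 0.19, adjusted p = 5.00e-05). In all 3 genes replicate 1 was the highest, at 1.71 to 1.94 times the lowest replicate, and every HT-DNA+AOA library lay above every HT-DNA library. Without replicate 1 the log2 fold changes were 1.53 for Parp14, 0.998 for Dtx3l and 0.949 for Parp9. Parp9 and Dtx3l lie on chromosome 16 on opposite strands with annotated spans that overlap by 558 bases in RefSeq, with Parp14 as the next protein-coding gene beside Dtx3l. Of the 31-base words in GENCODE transcripts of Parp9, 8.54% stand in Dtx3l on the opposite strand, and 7.52% of those of Dtx3l stand in Parp9. Whether strand was used in counting is not given in the sources used here, and a value of Parp9 or Dtx3l was not whole in 13 of the 18 libraries. In only 5 of these 13 did the values of Parp9 and Dtx3l add up to a whole number, within 0.011. With the counts of both added together, the log2 fold change was 1.26 (SE 0.16, adjusted p = 3.95e-06).

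The genes that handle double-stranded RNA both rose with AOA on top of HT-DNA. Eif2ak2 reached 70.8, 38.2 and 33.1 CPM from 24.0 ± 2.50 (SD, n = 3), a 1.98-fold rise (log2 fold change 0.98, SE 0.18, adjusted p = 2.31e-04). Replicate 1 was 2.14 times the lowest replicate, and without it the log2 fold change was 0.57 (adjusted p = 2.74e-05). Adar reached 195, 149 and 157 CPM from 112 ± 3.90 (log2 fold change 0.58, SE 0.094, adjusted p = 5.54e-05). Transcripts of Adar share 15.4% of their 31-base words with Chrnb2 on the opposite strand, so reads from the shared stretch cannot be told apart without strand. Counts per gene do not separate the interferon-induced form of Adar from the constitutive one.

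The membrane-acting genes rose by the smallest folds with all libraries in. Without HT-DNA+AOA replicate 1, Adar was the lowest of the 9 that rose (log2 fold change 0.45), followed by Ifitm3 (0.50), Eif2ak2 (0.57) and Bst2 (0.61). Bst2 reached 59.5, 68.5 and 88.8 CPM from 51.6 ± 3.92 (SD, n = 3), a 1.40-fold rise (log2 fold change 0.48, SE 0.11, adjusted p = 0.00138). Ifitm3 reached 213, 255 and 312 CPM from 199.99 ± 9.96, a 1.30-fold rise (log2 fold change 0.38, SE 0.10, adjusted p = 0.00486). Replicate 3 was the highest for both, and without it the log2 fold changes were 0.31 (adjusted p = 0.005) for Bst2 and 0.23 (adjusted p = 0.0241) for Ifitm3. In a fit of only the 2 groups Ifitm3 missed the threshold (adjusted p = 0.0741). Of the 31-base words in Ifitm3 transcripts, 20.5% stand in another gene on the same strand, so part of its count is uncertain. For Rtp4 the share is 12.5%, all with the gene model Gm45338. Samhd1, whose values were not whole in any of the 18 libraries, went the other way. It was at 58.8, 49.1 and 49.8 CPM in HT-DNA+AOA against 66.0, 71.9 and 67.9 CPM with HT-DNA alone, a fall by 0.38 on the log2 scale (SE 0.074, adjusted p = 3.06e-04).

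Aspartate moved all 10 genes in the direction opposite to AOA, with the call for Eif2ak2 resting on 1 library. This comparison shares the HT-DNA+AOA libraries with the preceding one, so the signs of the 2 are not independent. Against HT-DNA+AOA, 9 of the 10 genes were lower in HT-DNA+AOA+Asp, where 23.9% of all tested genes were, and Samhd1 was higher, where 23.7% were. The groups did not overlap for 9 of the 10, against 48.8% of all tested genes, with Eif2ak2 the exception. The median log2 fold change was -0.765 over the 10 genes and -0.012 over all tested genes.

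Rsad2 fell to 14.7, 14.1 and 13.2 CPM (log2 fold change -2.32, SE 0.17, adjusted p = 4.98e-09) and Rtp4 to 27.5, 26.2 and 28.6 CPM (log2 fold change -2.03, SE 0.087, adjusted p = 2.75e-12). Parp14 fell to 7.64, 5.87 and 6.72 CPM (log2 fold change -1.61, SE 0.21, adjusted p = 7.74e-06), Dtx3l to 7.50, 7.02 and 7.15 CPM (log2 fold change -1.03, SE 0.19, adjusted p = 1.88e-04) and Parp9 to 6.14, 6.78 and 8.001 CPM (log2 fold change -0.78, SE 0.19, adjusted p = 0.0022). With the counts of Parp9 and Dtx3l added together the log2 fold change was -0.91 (adjusted p = 1.43e-04). In these 5 genes the 3 libraries with aspartate were all below the lowest without it. Without HT-DNA+AOA replicate 1 the log2 fold changes were -1.22 for Parp14, -0.703 for Dtx3l and -0.545 for Parp9. Ifitm3 fell to 148, 158 and 158 CPM (log2 fold change -0.75, SE 0.10, adjusted p = 9.06e-06), Bst2 to 44.6, 41.2 and 45.2 CPM (log2 fold change -0.72, SE 0.11, adjusted p = 3.56e-05) and Adar to 112, 100.5 and 96.6 CPM (log2 fold change -0.69, SE 0.094, adjusted p = 9.47e-06). Eif2ak2 was at 35.5, 33.9 and 33.6 CPM, and its fall (log2 fold change -0.47, SE 0.18, adjusted p = 0.0399) rested on HT-DNA+AOA replicate 1, without which the log2 fold change was -0.058 (adjusted p = 0.62). That call was also lost without any 1 of the HT-DNA+AOA+Asp libraries (adjusted p = 0.0706 to 0.0936) and with scaling by totals (adjusted p = 0.109). Samhd1 rose to 61.7, 61.9 and 64.3 CPM (log2 fold change 0.25, SE 0.074, adjusted p = 0.00932), a call that was lost without HT-DNA+AOA replicate 2 (adjusted p = 0.055), and a fit of only the 2 groups called neither Samhd1 (adjusted p = 0.0965) nor Eif2ak2 (adjusted p = 0.177).

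Set beside HT-DNA alone, HT-DNA+AOA+Asp left 7 of the 10 genes short of the threshold. Eif2ak2 was higher, where 23.2% of all tested genes were, and Ifitm3 and Rtp4 were lower, where 23.5% were. Rtp4 was at 27.4 ± 1.17 CPM against 37.6 ± 1.44 with HT-DNA alone (log2 fold change -0.45, SE 0.087, adjusted p = 5.41e-04), and Ifitm3 at 155 ± 5.40 against 199.99 ± 9.96 (log2 fold change -0.37, SE 0.10, adjusted p = 0.00652, mean ± SD and n = 3 throughout). For both genes the 3 libraries with AOA and aspartate lay below the 3 with HT-DNA alone. The groups did not overlap for 7 of the 10 genes, against 61.1% of all tested genes. Eif2ak2 was at 34.3 ± 1.01 against 24.0 ± 2.50 CPM (log2 fold change 0.52, SE 0.18, adjusted p = 0.0292), and its call was lost in 5 of 6 fits that left out a library, all but that without HT-DNA replicate 2. For Rsad2 the 95% interval of the log2 fold change was -0.39 to 0.35, for Parp14 -0.17 to 0.79, for Dtx3l -0.11 to 0.70 and for Parp9 -0.007 to 0.81. For Bst2 it was -0.47 to -0.0068, for Adar -0.31 to 0.083 and for Samhd1 -0.28 to 0.023.

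Without HT-DNA, AOA moved 5 of the 10 genes, near the share of all tested genes that passed in either direction (45.7%). Against Mock, Bst2 was higher, where 22.4% of all tested genes were, and Eif2ak2, Samhd1, Parp9 and Parp14 were lower, where 23.3% were. The other 5 did not pass the test, and the median log2 fold change was -0.33 over the 10 genes and 0.015 over all tested genes. Parp14 was at 1.03, 0.472 and 0.93 CPM with AOA against 2.20, 1.85 and 1.85 in Mock (log2 fold change -1.31, SE 0.34, adjusted p = 0.00431), and Parp9 at 3.73, 3.05 and 4.01 against 5.46, 5.63 and 5.55 (log2 fold change -0.63, SE 0.21, adjusted p = 0.0182). The Parp9 call was lost without AOA replicate 2 (adjusted p = 0.0911) and with the counts of Parp9 and Dtx3l added together (adjusted p = 0.0512). Eif2ak2 was at 19.1, 17.8 and 20.1 CPM against 36.1 ± 1.84 in Mock (log2 fold change -0.93, SE 0.19, adjusted p = 5.51e-04), and Samhd1 at 54.0, 48.8 and 48.0 CPM against 67.4 ± 2.95 (log2 fold change -0.42, SE 0.074, adjusted p = 1.38e-04; SD, n = 3). All AOA libraries were below all Mock libraries for these 4 genes. The groups did not overlap for 6 of the 10, against 59.4% of all tested genes. Bst2 was at 54.1, 51.7 and 53.0 CPM with AOA, above each Mock library (log2 fold change 0.37, SE 0.11, adjusted p = 0.0103), and Ifitm3 at 147, 154 and 168 CPM, also above each, just missed the threshold (log2 fold change 0.25, SE 0.10, adjusted p = 0.0524).

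Adar was at 109, 95.9 and 93.2 CPM with AOA, Rtp4 at 1.86, 2.36 and 2.50 CPM and Dtx3l at 4.14, 2.96 and 4.42 CPM, each overlapping Mock. Rsad2 had counts of 4, 1 and 1 in the 3 AOA libraries and of 1, 1 and 1 in the 3 AOA+Asp libraries, so no fold change is given for it among the groups without HT-DNA. Scaling by library totals moved the median of all tested genes by -0.13 on the log2 scale here. It turned the sign for Adar (from 0.014 to -0.12, neither called), ended the call for Bst2 (0.24, adjusted p = 0.0547), which was also lost without Mock replicate 1 (adjusted p = 0.0568), left 0 genes higher and 4 lower, and moved the share of higher genes among all calls from 49.1% to 32.0%.

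Aspartate given with AOA raised Eif2ak2 to 32.9, 28.5 and 29.6 CPM (log2 fold change 0.68, SE 0.19, adjusted p = 0.00668) and Samhd1 to 64.4, 63.9 and 63.7 CPM (log2 fold change 0.35, SE 0.074, adjusted p = 8.71e-04) compared with AOA alone, where 23.5% of all tested genes were higher. It lowered Bst2 to 37.6, 43.1 and 37.3 CPM (log2 fold change -0.43, SE 0.11, adjusted p = 0.00419), Ifitm3 to 114, 127 and 113 CPM (log2 fold change -0.40, SE 0.10, adjusted p = 0.0034), Adar to 77.5, 79.0 and 83.0 CPM (log2 fold change -0.31, SE 0.095, adjusted p = 0.0113) and Rtp4 to 1.59, 1.66 and 1.64 CPM (log2 fold change -0.46, SE 0.16, adjusted p = 0.033), where 22.8% were lower. For these 6 genes, and for 7 of the 10 in all, the groups did not overlap, against 56.8% of all tested genes. The Rtp4 call was kept in 1 of 6 fits that left out a library, that without AOA replicate 1, and was lost under DESeq2 (adjusted p = 0.0614). The Adar call was lost without AOA replicate 1 (adjusted p = 0.0651), and both calls were lost with scaling by totals, which left 2 genes higher and 2 lower and moved the share of higher genes among all calls from 50.7% to 62.2%. Parp14 was at 1.45, 1.17 and 1.18 CPM, Parp9 at 4.25, 2.89 and 5.31 CPM and Dtx3l at 4.34, 4.01 and 3.54 CPM, with log2 fold changes of 0.67, 0.22 and 0.056 that did not pass. Against Mock, AOA+Asp left none of the 10 genes past the threshold in edgeR's test, where 6.47% of all tested genes passed it. At an unadjusted p under 0.05 there were 2 of 10 (Adar and Rtp4), and DESeq2 called 1, Adar (adjusted p = 0.0307). All 10 estimates against Mock were below 0, that of Rsad2 on 3 counts against 12, and the median over all tested genes was 0.00535. The 10 estimates use the same libraries, so their signs are not independent.

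The AOA effect differed with and without HT-DNA for 7 of the 10 genes. The difference of the 2 log2 fold changes was above 0 and passed the test for Parp14 (3.23), Rsad2 (3.10), Eif2ak2 (1.91), Parp9 (1.82), Rtp4 (1.60), Dtx3l (1.55) and Adar (0.56), where 7.23% of all tested genes passed it in this direction. Eif2ak2, Parp9 and Parp14 had passed the test in both settings, down without HT-DNA and up with it. The Rsad2 value rests on 12 counts over the Mock libraries and 6 over the AOA libraries, and its call was lost in 6 of the 12 fits that left out a library (Mock replicate 1 or 2, AOA replicate 2 or 3, HT-DNA replicate 1 or 3). For Bst2, Ifitm3 and Samhd1 the differences were 0.11 (95% interval -0.22 to 0.44), 0.13 (-0.17 to 0.43) and 0.039 (-0.18 to 0.26). The aspartate effect differed with HT-DNA for Parp14 (-2.28, adjusted p = 0.00891), Rtp4 (-1.57, adjusted p = 1.23e-04) and Eif2ak2 (-1.15, adjusted p = 0.0399), all below 0, where 0.785% of all tested genes passed in this direction. The Eif2ak2 call was lost in 9 of 12 fits that left out a library, all but those without an HT-DNA+AOA library, and the difference was -0.74 without HT-DNA+AOA replicate 1. The Parp14 call was lost without AOA replicate 2 (adjusted p = 0.0518) and without AOA+Asp replicate 1 (adjusted p = 0.0515). Dtx3l (-1.08, adjusted p = 0.0805) and Parp9 (-1.0, adjusted p = 0.112) missed the threshold. With the counts of both added together the difference was -1.05 and passed (adjusted p = 0.042). Both differences use the AOA and HT-DNA+AOA libraries.

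**Figure D3:**
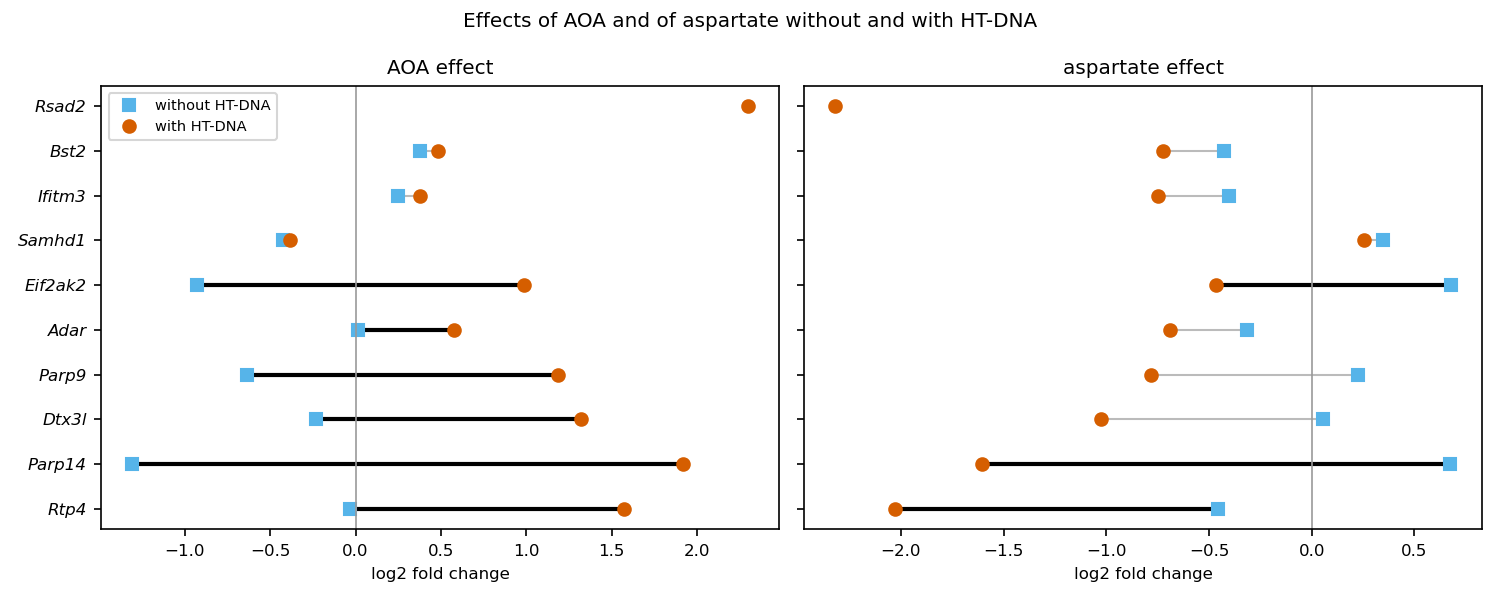
Log2 fold change (horizontal axis) for AOA (left, AOA against Mock and HT-DNA+AOA against HT-DNA) and for aspartate (right, AOA+Asp against AOA and HT-DNA+AOA+Asp against HT-DNA+AOA) in each of the 10 genes (rows). Squares are cells without HT-DNA and circles cells with it, black lines mark a difference that passed an adjusted p-value of 0.05 and grey lines 1 that did not, and Rsad2 is shown with HT-DNA alone because of its low counts without. For Eif2ak2, Parp9, Dtx3l and Parp14 square and circle lie on opposite sides of 0 in both panels, and for Bst2, Ifitm3 and Samhd1 on the same side. The fold changes without HT-DNA did not pass the test for Dtx3l in either panel, nor for Parp9 and Parp14 in the right panel.

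The relatives of the 10 genes by family moved in both directions. Of 29 relatives 21 were tested, and in HT-DNA+AOA against HT-DNA 6 were higher and 5 lower, with a median of -0.058. Of all tested genes 22.8% were higher and 22.7% lower, and the relatives stood near these shares. Among the other PARPs, Parp10, a mono-ADP-ribosyltransferase, moved in the directions of Parp9 and Parp14. It rose from 15.7 ± 1.34 to 34.4 ± 6.74 CPM (log2 fold change 1.13, SE 0.13, adjusted p = 6.62e-07) and was at 11.2 ± 0.607 CPM with aspartate (log2 fold change -1.62, SE 0.13, adjusted p = 1.43e-08; SD, n = 3). Zc3hav1, the zinc-finger antiviral protein, rose with AOA (log2 fold change 0.90, SE 0.11, adjusted p = 2.06e-06) after a fall with HT-DNA (-0.79), but its change with aspartate did not pass (-0.19, adjusted p = 0.162). Parp1, which responds to DNA breaks, was at -0.055 (adjusted p = 0.449), and Parp16 fell by 1.09 on the log2 scale. Dtx2 fell by 0.51, opposite to Dtx3l.

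In the other families too, relatives went other ways. Ifitm2, a close paralogue of Ifitm3, was -0.31 in HT-DNA+AOA against HT-DNA (SE 0.094, adjusted p = 0.0113), where Ifitm3 rose. Of the other kinases that phosphorylate the translation factor eIF2, Eif2ak3 (PERK) fell by 0.92 (adjusted p = 8.97e-07), while Eif2ak1 (-0.13) and Eif2ak4 (-0.33), the sensor of uncharged tRNA, did not pass. With aspartate all 3 rose, Eif2ak3 by 1.38, Eif2ak4 by 0.54 and Eif2ak1 by 0.45, while Eif2ak2 fell. Adarb1, the other active editing enzyme, fell by 0.75 with AOA (adjusted p = 0.00824) and rose by 0.64 with aspartate (adjusted p = 0.0211).

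Lists of other antiviral effectors and of the interferon pathway stood beside the 10 genes as follows. In a list of 20 other antiviral effectors 18 were tested, and 16 were higher and 1 lower in HT-DNA+AOA against HT-DNA, with a median of 1.69. With aspartate 16 were lower and 1 higher, with a median of -1.74. Of 17 genes of the interferon pathway 16 were tested, with 9 higher and 3 lower with AOA (median 0.35), and 5 higher and 11 lower with aspartate (median -0.54). Of all tested genes 22.8% were higher and 22.7% lower with AOA, and 23.7% were higher and 23.9% lower with aspartate. Of the transcription factors that carry the signal, Stat2 rose by 0.99, Irf9 by 1.43 and Irf7 by 2.33, and Zbp1, a sensor of Z-form nucleic acid, by 1.90. Irf3 did not pass with AOA (0.11, adjusted p = 0.327) and fell with aspartate (-0.40, adjusted p = 0.00133). With aspartate the other 4 fell too, with log2 fold changes of -0.67, -1.48, -2.65 and -2.45. The transcript of interferon-beta itself, Ifnb1, was too low to test. It had counts of 6, 4 and 2 in HT-DNA+AOA, 1, 0 and 0 in HT-DNA+AOA+Asp and 0 in the other 12 libraries. A count of 0 allows up to 3 counts in each of those libraries.

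**Figure D4:**
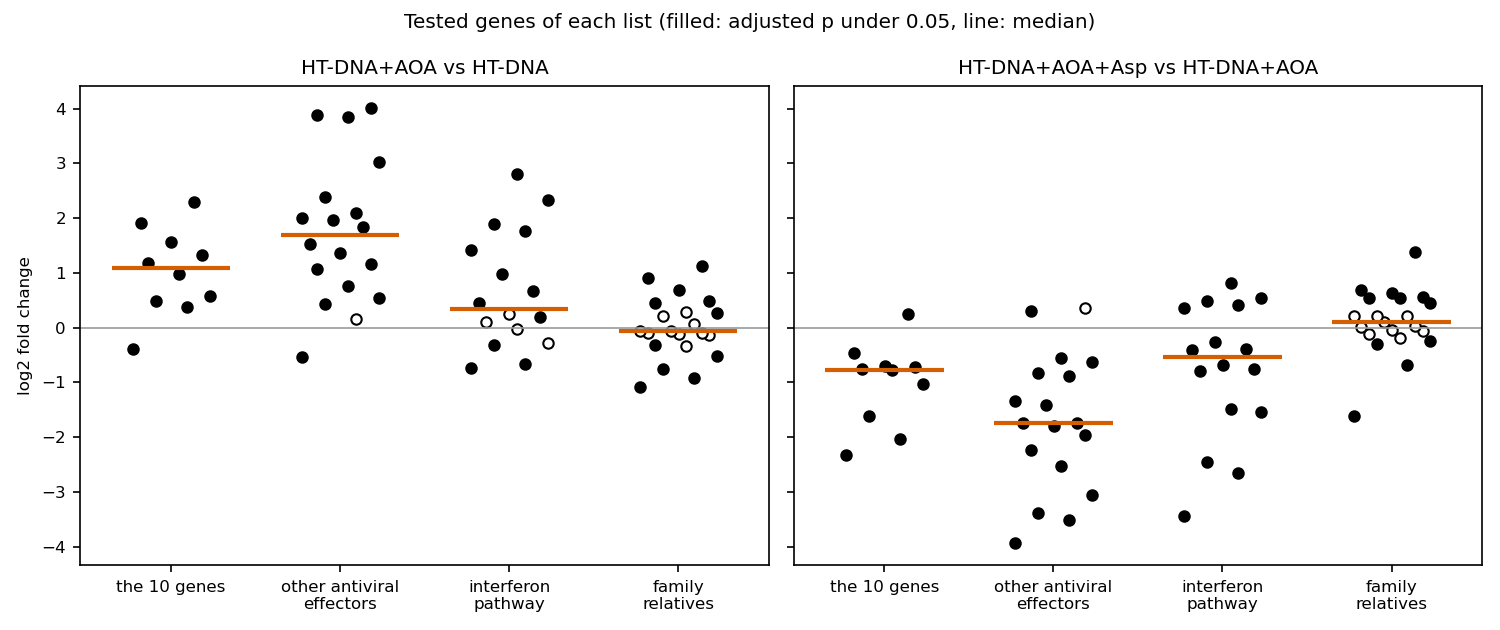
Log2 fold change (vertical axis) of every tested gene in the list of 10, of other antiviral effectors, of the interferon pathway and of family relatives (horizontal axis), for HT-DNA+AOA against HT-DNA (left) and HT-DNA+AOA+Asp against HT-DNA+AOA (right). Each point is a gene, filled where its adjusted p-value was under 0.05, and orange lines are medians, which run from 1.69 for the other effectors to -0.058 for the relatives on the left, with 1.08 for the 10 genes.

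Across the 18 libraries the 10 genes did not share a single pattern. Pearson's r between a gene's log2 CPM and the mean of the 10 standardised profiles is given as a description, since the libraries of a group share their treatment. It was highest for Parp14 (0.983) and Dtx3l (0.963), followed by Rsad2 (0.943), Rtp4 (0.941), Parp9 (0.907), Adar (0.899) and Ifitm3 (0.801). It was lower for Bst2 (0.635) and Eif2ak2 (0.620), and -0.071 for Samhd1. Rsad2 and Rtp4 were the most alike pair (0.989), Ifitm3 and Bst2 also followed each other (0.923), and Samhd1 and Bst2 were the most opposed (-0.658). Among the tested genes outside the 10, the profiles most like the mean were those of Ifi207 (0.981), Znfx1 (0.980), Irgm1 (0.978), Igtp (0.974), Sp140 (0.973), Rigi (0.972), Apobr (0.968), Irgm2 (0.964), Slc10a6 (0.960) and Tgtp2 (0.957), over the same 18 libraries. These genes were not part of the mean, whereas each of the 10 was, which raises its own r.

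The spread between replicates was widest in HT-DNA+AOA. With Rsad2 left out for its low counts without HT-DNA, the median coefficient of variation of the other 9 was 6.19% in Mock, 8.42% in AOA, 7.57% in AOA+Asp, 6.05% in HT-DNA and 4.26% in HT-DNA+AOA+Asp, and 20.8% in HT-DNA+AOA. The ratio of Parp9 to Dtx3l counts was 1.11 to 1.34 in the Mock libraries, 0.891 to 1.04 in AOA, 0.726 to 1.499 in AOA+Asp, 0.794 to 1.03 in HT-DNA, 0.756 to 0.960 in HT-DNA+AOA and 0.816 to 1.12 in HT-DNA+AOA+Asp. The AOA+Asp libraries spanned all the others. With Rsad2 left out, the libraries of neighbouring groups in the order of mean CPM overlapped in 21 of 45 pairs over the 9 genes. The 6 groups ran from AOA+Asp or AOA at the bottom to HT-DNA+AOA at the top for Rsad2, Bst2, Ifitm3, Adar, Parp9, Dtx3l, Parp14 and Rtp4. For Eif2ak2 the order from low to high was AOA, HT-DNA, AOA+Asp, HT-DNA+AOA+Asp, Mock and HT-DNA+AOA, and the range of HT-DNA+AOA (33.1 to 70.8 CPM) overlapped that of Mock and of HT-DNA+AOA+Asp. For Samhd1 it was AOA, HT-DNA+AOA, HT-DNA+AOA+Asp, AOA+Asp, Mock and HT-DNA, and the first 2 lay below every library of the other 4 groups.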

How the data were processed

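L929 cells in 6 groups of 3 cultures were profiled by RNA-seq after extraction with TRIzol. The deposited values were expected counts, that is estimated read numbers for each gene without normalization, of which 11.6% were not whole. They were rounded, although the planned test assumed whole counts. The authors' group means in the same table were not used. Aligner, counting program, genome build and strand setting are not given in the sources used here. Genes were tested in R 4.3.3 with edgeR 4.0.16, after filterByExpr (minimum count 10, minimum total 15) left 14263 genes, with TMM scaling, in 1 robust quasi-likelihood fit of all 18 libraries. P-values were Benjamini-Hochberg adjusted over all tested genes, SE was the absolute log2 fold change over the root of F, and intervals were 95%. The code was tested on simulated data. The alternatives were DESeq2 1.42.0, RLE scaling, library totals, other filters, a replicate block, fits of the compared groups alone, a fold threshold and leaving out each library, and, chosen after seeing the data, Parp9 and Dtx3l counts added together.

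The 10 genes and all lists were chosen with earlier results of these data known. Every one of the 10 was named, with relatives by family, the signal-carrying genes of the interferon pathway, and the 10 other tested genes whose log2 CPM (prior count 2) followed the mean of the 10 standardised profiles most closely. Totals of 17901546 to 24057284 counts per library limited precision mainly for Rsad2 without HT-DNA. Counts of Parp14 were low too, at 20, 11 and 16 in the AOA libraries. Same-numbered replicates did not deviate together (21 correlations of -0.104 to 0.134), so numbers were not taken to pair samples.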

Additional observations from a re-analysis of the deposited data

Results flagged for a closer look

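Of the 10 genes, 7 had an AOA effect that differed between cells with and without HT-DNA by edgeR's test of the difference itself. All 7 differences were above 0, where 7.23% of all tested genes passed in this direction. The difference of the log2 fold changes was 3.23 for Parp14 (adjusted p = 6.88e-05), 1.91 for Eif2ak2 (adjusted p = 1.76e-04), 1.82 for Parp9 (adjusted p = 5.63e-04), 1.60 for Rtp4 (adjusted p = 1.70e-05), 1.55 for Dtx3l (adjusted p = 0.00194) and 0.56 for Adar (adjusted p = 0.0103). For Rsad2 it was 3.10 (adjusted p = 0.0369), on counts of 6, 5 and 1 in Mock and 4, 1 and 1 in AOA. That call was lost in 6 of 12 fits that left out a library, and in a fit of only the groups compared (adjusted p = 0.0836).

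The aspartate effect differed by the same test for 3 of the genes, all below 0, where 0.785% of all tested genes passed in this direction. The difference was -2.28 for Parp14 (adjusted p = 0.00891), -1.57 for Rtp4 (adjusted p = 1.23e-04) and -1.15 for Eif2ak2 (adjusted p = 0.0399). Leaving out 1 library ended the call for Parp14 in 2 of 12 fits and for Eif2ak2 in 9 of 12. The Eif2ak2 call was also lost with library totals (adjusted p = 0.0602) and with only the groups compared (adjusted p = 0.123). In Eif2ak2 the HT-DNA+AOA libraries were at 70.8, 38.2 and 33.1 CPM. The part of the spread between those 3 libraries in these differences was not tested beyond leaving out each library.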

How the results depend on the processing

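The 10 genes gave 90 values in 9 comparisons, recomputed 1389 times, each under 1 alternative. Of these, 1262 kept their direction and their side of the threshold, 82 lost a call, 29 gained 1 and 16 changed sign, and no called value changed sign in 763 recomputations. The causes of the changes were not tested, unless fewer libraries or a fold threshold made them.

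The counts of 9 higher and 1 lower in HT-DNA+AOA against HT-DNA changed only in a fit of the groups compared alone (8 higher, without Ifitm3), with at least 10 counts in every library (8 higher, as Rsad2 was not tested), and with a log2 fold threshold of 1, which left 5 higher and 0 lower. That threshold left 0 higher and 1 lower in AOA against Mock, 0 and 0 in AOA+Asp against AOA, 3 higher and 0 lower in HT-DNA against Mock, 0 higher and 4 lower in HT-DNA+AOA+Asp against HT-DNA+AOA, and 0 and 0 in HT-DNA+AOA+Asp against HT-DNA. Higher in AOA against Mock were 0 genes with library totals, and 2 without a filter, with at least 10 counts in every library, with the replicate block or with only the groups compared, which each added Ifitm3. Lower in AOA+Asp against AOA were 2 with library totals. Lower in AOA+Asp against Mock were 1 with DESeq2, without a filter or with the replicate block (Adar in each), and 2 with library totals (Adar and Rtp4) or with only the groups compared (Adar and Eif2ak2). A fit of only the groups compared gave 0 higher in HT-DNA+AOA+Asp against HT-DNA+AOA and 2 higher in HT-DNA+AOA+Asp against HT-DNA (Parp9 joined Eif2ak2) and 3 lower (Bst2 joined, adjusted p = 0.00775, as it did without HT-DNA replicate 2, adjusted p = 0.048), and added Adar and Dtx3l to the genes higher in HT-DNA against Mock (7 in place of 5). In the difference of aspartate effects 5 were lower with DESeq2 or without a filter, as Parp9 and Dtx3l joined the 3 called, and with their counts added together the pair passed too (-1.05, adjusted p = 0.042).

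Leaving out 1 library gave 0 to 2 genes higher in AOA against Mock, 0 to 1 lower in HT-DNA against Mock, 0 to 1 higher in HT-DNA+AOA+Asp against HT-DNA+AOA, 0 to 1 higher in HT-DNA+AOA+Asp against HT-DNA, and 1 to 5 lower in the difference of aspartate effects. The 5 came without HT-DNA+AOA replicate 3, and the 1 without AOA replicate 2 or AOA+Asp replicate 1. Over all tested genes the calls in the difference of AOA effects were 1153 to 5442 without 1 library (5442 without HT-DNA+AOA replicate 3) and 884 with only the groups compared, in place of 2209. In the difference of aspartate effects they were 69 to 419 without 1 library, 315 with DESeq2, 303 without a filter and 65 with only the groups compared, in place of 150. In AOA+Asp against Mock they were 374 to 735 without 1 library and 2447 with only the groups compared, in place of 923. Only the groups compared gave 4208 in place of 6477 in HT-DNA+AOA against HT-DNA and 4239 in place of 6797 in HT-DNA+AOA+Asp against HT-DNA+AOA. Library totals moved the share of higher genes among calls from 39.0% to 21.0% in AOA+Asp against Mock, from 49.8% to 62.2% in HT-DNA+AOA+Asp against HT-DNA+AOA and from 46.7% to 64.5% in the difference of AOA effects.

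Values that changed sign were not called. With library totals they were -0.12 for Adar in AOA against Mock, -0.084 for Samhd1 in HT-DNA against Mock and 0.029 for Rsad2 in HT-DNA+AOA+Asp against HT-DNA. With Parp9 and Dtx3l added together the HT-DNA value was 0.16 in place of -0.073 for Parp9. Without 1 library, Adar was -0.057 to 0.067 and Rtp4 -0.10 to 0.083 in AOA against Mock, Dtx3l -0.11 to 0.17 in AOA+Asp against AOA, Samhd1 -0.0085 to 0.058 in HT-DNA against Mock, and Rsad2 -0.077 to 0.018 in HT-DNA+AOA+Asp against HT-DNA. In the difference of AOA effects, Ifitm3 was -0.024 to 0.25, Samhd1 -0.050 to 0.099 and Bst2 -0.064 to 0.23.

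Replicate numbers did not pair the samples: 1 of 21 same-number correlations was over 0.1 and 5 of 21 were the best of their sample. With the replicate block the members lower in the difference of aspartate effects were 4, with Dtx3l added (-1.05, adjusted p = 0.0457), and no call was lost. Depth limited Rsad2 among the groups without HT-DNA and Ifnb1. Counts of Parp14 were also low in the AOA libraries.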

Other observations

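Genes upstream of the interferon-stimulated genes moved in both directions, and those given here were named after their values were seen. In HT-DNA+AOA against HT-DNA, Sting1 fell by 0.66 on the log2 scale (adjusted p = 9.46e-05), Tyk2, a kinase of the interferon receptor, by 0.74 (adjusted p = 8.95e-07) and Tbk1 by 0.31 (adjusted p = 0.0225). With aspartate they rose, by 0.37, 0.55 and 0.82. Samhd1 was the member of the 10 that moved in these directions. Cgas went the other way, higher by 0.45 with AOA (adjusted p = 0.0113) and at -0.40 with aspartate (adjusted p = 0.0226), as did the receptor gene Ifnar2 (0.19, adjusted p = 0.0481, and -0.25, adjusted p = 0.0108). Ifnar1 and Jak1 did not pass with AOA (-0.028 and 0.25) and rose with aspartate (0.49 and 0.41).

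Parp12, another interferon-inducible member of the PARP family, had at most 1 count in any library and was not tested. Usp18, which dampens the interferon receptor, rose by 2.81 (adjusted p = 8.94e-11) with AOA and had a log2 fold change of -3.44 (adjusted p = 1.54e-11) with aspartate.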
